A study of Mus musculus with 2 samples.

Results

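DNA replication genes are described here in mouse embryonic fibroblasts (MEF) and in induced myogenic progenitor cells (iMPC) made from such fibroblasts. The set was chosen by name from genes known to act in DNA replication or to be made in S phase, and holds 44 of the 26100 genes listed in both libraries. All 44 were found in both. No member was used to define a cell group. Each kind of cell was profiled in 1 library with droplet-based 3′ single-cell RNA sequencing, in which a unique molecular identifier (UMI) stands for 1 captured transcript. Both labels give the genotype Tg:Pax7-nGFP/C57BL6;DBA2. The MEF were kept in MEF media. The iMPC were made with MyoD and F/R/C, as the labels abbreviate the additives, were still in F/R/C medium when sampled, and are called a stable clone in the design text. Myod1 UMIs may come from the transgene or from the endogenous locus.

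Before S phase, the Mcm2 to Mcm7 helicase is loaded on origins by Cdc6 and its partners, a step called licensing, which geminin (Gmnn) blocks once replication has begun. Cyclin E and its kinase then help to fire origins, Cdc45 and the GINS proteins switch the helicase on, primase and DNA polymerases copy the strands, and Pcna holds polymerases on DNA after loading by Rfc proteins. Many of these genes are transcribed by E2F factors, which Rb1 holds in check, and the E2F-related repressor E2f8 is itself an S-phase gene. In muscle, satellite cells marked by Pax7 can divide, and myoblasts that express Myog usually leave the cell cycle before they make contractile proteins such as Ckm.

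Cells were split by UMIs of stage genes. Pax7 only cells had at least 1 Pax7 UMI and 0 of Myog, a myoblast commitment factor. Pax7 and Myog cells had at least 1 and at least 3. Myog only cells had at least 5 Myog UMIs, 0 of Pax7 and at most 1 of Ckm, the muscle creatine kinase. Ckm-high and Dcn-high cells had at least 5 UMIs of Ckm and of Dcn, a proteoglycan of fibroblasts. Group sizes were 6043 MEF, 2180 Pax7 only, 943 Pax7 and Myog, 1182 Myog only, 1037 Ckm-high and 553 Dcn-high cells. Of the 9349 iMPC cells, 3753 (40.1%) were in no group and 289 were in more than 1, among them 145 both Pax7 and Myog and Ckm-high, and 110 both Pax7 only and Dcn-high. In the Pax7 only group, 40.8% of cells sat at the cut of 1 Pax7 UMI. Median depth ran from 18064 UMIs per cell in the Dcn-high to 42148 in the Ckm-high group, with 18929 in MEF. The fibroblast markers summed to 4314 CPM (UMIs of a gene scaled to a fixed total per group) in MEF, 4684 in Dcn-high and 118 in Ckm-high cells, and Pax7 stood at 0.0169 CPM in MEF against 45.1 in all iMPC cells. Dcn is 1 of these 7 markers, so the Dcn-high sum is in part set by the cut. Marker by marker, the median log2 ratio of Dcn-high cells to MEF was -0.46. At a ratio of at least 2, 3 were higher (13% of all genes tested) and 1 lower (12.9%). The Dcn-high cells also held 3870 CPM of myocyte markers. All 5 iMPC groups were cut from the same library, and MEF were the other. With 1 library per group there is no test between groups, and the 95% intervals below cover counting error only.

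Promoter letters of 4 members are shown because E2F is the best known regulator of such genes. Mcm6, Mcm5 and Pola1 were picked because they hold the E2F motif, which most members lack, and E2f8 because its level differed from the rest. They are from RefSeq (GRCm38.p6), 5′ to 3′ on the gene's strand. Capitals mark the E2F letters TTTCGCGC or TTTGGCGC on either strand, and in E2f8 the 7-letter core TTGGCGC. The stretches are Mcm6 at chr1:128359731-128359830 (minus strand), Mcm5 at chr8:75109312-75109411 (plus), Pola1 at chrX:93632240-93632339 (minus) and E2f8 at chr7:48881655-48881754 (minus).
Mcm6: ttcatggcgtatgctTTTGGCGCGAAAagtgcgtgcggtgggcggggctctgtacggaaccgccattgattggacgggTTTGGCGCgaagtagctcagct
Mcm5: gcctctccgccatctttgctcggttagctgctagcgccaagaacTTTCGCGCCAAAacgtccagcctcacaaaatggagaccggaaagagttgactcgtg
Pola1: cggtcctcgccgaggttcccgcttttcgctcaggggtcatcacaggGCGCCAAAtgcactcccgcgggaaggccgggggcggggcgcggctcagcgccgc
E2f8: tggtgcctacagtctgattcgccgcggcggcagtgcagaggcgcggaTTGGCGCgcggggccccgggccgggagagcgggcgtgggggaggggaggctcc

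Of the 44 members, 33 had an entry in the promoter table, which spans 250 bases before to 50 after a gene's start. The 8-letter E2F motif was in 9 of these 33 genes (27.3%), namely Mcm3, Mcm5, Mcm6, Mcm7, Clspn, Pola1, Rfc3, Uhrf1 and Dtl, against 0.929% of the 27025 genes in the table. Mcm6 held 3 matches, of which 2 on opposite strands overlap, and Mcm5 held an overlapping pair. The 7-letter core, TTCGCGC or TTGGCGC, was in 13 of 33 member genes (39.4%) against 4.47% of all genes, which adds Brip1, Fen1, Hells and E2f8. Of 17 mitosis genes, 1 held the 8-letter motif (5.88%) and 4 the core (23.5%). The CHR letters TTTGAA, a motif of mitosis genes, were in 5 of the 33 members (15.2%), 12 of the 17 mitosis genes (70.6%) and 20.2% of all genes. E2f8 was among the 5. Matches are letters in a window and not measured binding.

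The replication genes were highest in Pax7 only cells and lowest in Ckm-high cells. Their summed level was 1911 CPM (95% interval 1898 to 1924) in Pax7 only, 1497 (1483 to 1509.9) in Pax7 and Myog, 948 (937 to 959) in Myog only, 325 (319.5 to 329.7) in Ckm-high and 694 (679.6 to 709) in Dcn-high cells. MEF stood at 611 CPM (607 to 616). Pax7 only cells were thus 3.13-fold above MEF, 2.02-fold above Myog only and 5.89-fold above Ckm-high cells. No 2 of these intervals overlapped. The iMPC cells in no group, at 1545 CPM, fell between Pax7 only and Myog only cells.

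**Figure D1:**
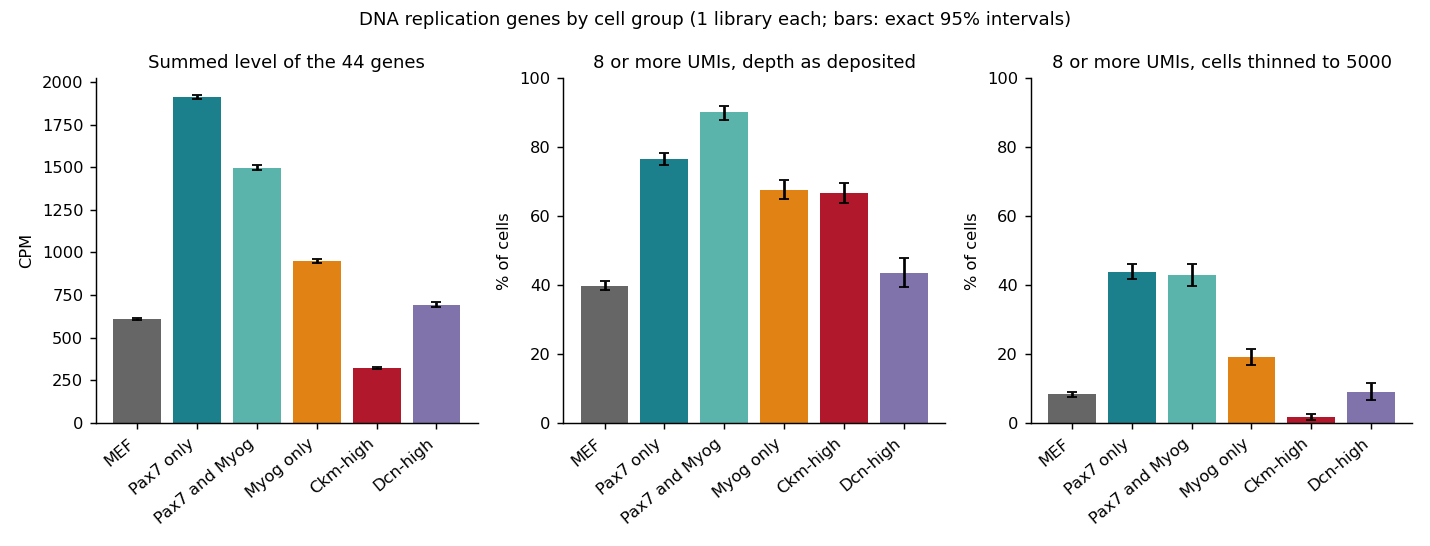
Summed level of the 44 genes in CPM (left) and percent of cells with at least 8 member UMIs, at deposited depth (middle) and after every cell was thinned to 5000 UMIs (right), for 6 cell groups, with exact 95% intervals. The Ckm-high bar is at 66.7% in the middle panel and at 1.74% in the right one, where Pax7 only cells are at 43.9%.

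Counted by cell, the order of the groups depended on depth. At deposited depth, 39.9% of MEF, 76.7% of Pax7 only, 90.1% of Pax7 and Myog, 67.8% of Myog only, 66.7% of Ckm-high and 43.6% of Dcn-high cells had at least 8 member UMIs. After every cell was thinned to 5000 UMIs the shares were 8.40% (7.70 to 9.15) of MEF, 43.9% (41.8 to 46.1) of Pax7 only, 43.1% (39.9 to 46.3) of Pax7 and Myog, 19% (16.8 to 21.4) of Myog only, 1.74% (1.03 to 2.73) of Ckm-high and 9.04% (6.79 to 11.7) of Dcn-high cells. Thinning left out 284 MEF cells and no iMPC cell. The intervals of both Pax7-holding groups overlapped, as did those of MEF and Dcn-high cells. At a minimum of 16 UMIs, the thinned shares were 20.6% of Pax7 only and 15.5% of Pax7 and Myog cells. They were 3.06% of MEF and 1.81% of Dcn-high cells. At a minimum of 4 the same 4 groups were at 66.1%, 65.3%, 21.4% and 22.2%. The high raw share of Ckm-high cells went with their depth and against their CPM.

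The thinned cells also show how the set was spread within a group. Median member UMIs per cell were 6 in both Pax7-holding groups, 2 in MEF, Myog only and Dcn-high cells and 1 in Ckm-high cells. Cells at 0 made up 5.69% of Pax7 only, 20.2% of MEF and 31.1% of Ckm-high cells. Among cells with at least 8, the mean was 16.3 in Pax7 only, 15.3 in Myog only, 14.3 in MEF and 10.7 in Ckm-high cells. These means are held close by the minimum itself. The 10% of cells richest in these transcripts held 45.7% of the member UMIs of MEF and 30.1% of those of Pax7 only cells.

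Most cells rich in replication transcripts were also rich in mitosis transcripts. With the same minimum of 8 UMIs for a list of 20 mitosis genes, 60.7% of the replication-rich MEF cells, 69.0% of the Pax7 only, 71.7% of the Pax7 and Myog and 65.3% of the Myog only cells passed it. Among all cells of these groups, rich or not, 8.13%, 43.9%, 47.9% and 22.4% passed it. The rise over all cells was thus largest in MEF. Cells with both made up 30.3% of Pax7 only cells, 5.11% of MEF and 12.4% of Myog only cells. In the Ckm-high group, 4 of 18 replication-rich cells (22.2%) also passed the mitosis minimum, against 3.95% of all its cells.

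Along single stage genes the share of replication-rich iMPC cells changed by steps. With rising Myog, from 0 to 20 or more thinned UMIs, it was 39.2%, 34.0%, 27.7%, 18.3%, 16.6%, 8.43% and 1.23%. With Ckm it was 35.4% at 0, 13.6% at 1, 4.03% at 2 and 0.943% at 3 to 4. Cells with more Pax7 had the larger shares, from 28.4% at 0 to 51.4% at 3 to 4 UMIs. With Dcn the share went from 33.6% at 0 to 15.9% at 1 and 4.08% at 10 to 19. Mitosis transcripts went from 1856 CPM at 0 Myog to 286 CPM at 20 or more, but did not follow the share in every bin. They were at 2280 CPM in cells with 2 Pax7 UMIs and 2015 CPM at 3 to 4. With Dcn they were at 353 CPM at 5 to 9 UMIs and 510 CPM at 10 to 19.

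**Figure D2:**
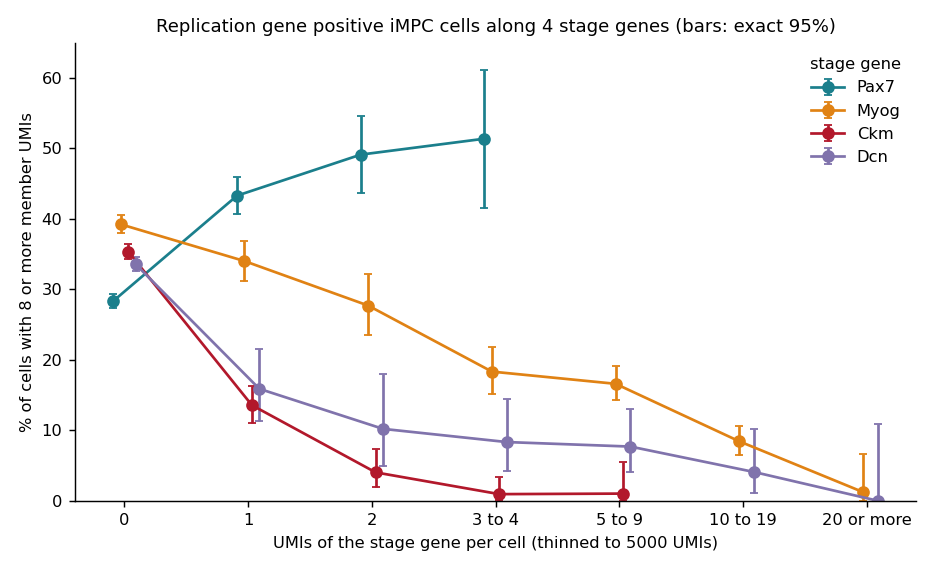
Percent of iMPC cells with at least 8 member UMIs against the cell's own UMIs of Pax7, Myog, Ckm or Dcn, all after thinning to 5000 UMIs, with exact 95% intervals. The Myog line runs from 39.2% down to 1.23%, the Ckm line drops to 4.03% by 2 UMIs, and the Pax7 line climbs from 28.4% to 51.4%.

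Gene by gene, all 44 members were higher in Pax7 only cells than in MEF, each with an interval above 0. The median log2 ratio was 1.79, against a median of -0.09 over the 8557 genes with at least 10 CPM in either group. At a ratio of at least 2, with 10 CPM in either group, 35 members were higher, a call reached by 14.8% of those genes, and 0 were lower, against 19.4%. Of the other 9, Mcm2, Rfc2, Mcm4, Slbp and Tipin were higher by less than 2-fold, with log2 ratios of 0.74 to 0.91. Gins1, Ung, Cdc6 and Dscc1 stayed below 10 CPM in both groups, with log2 ratios of 1.24, 2.18, 2.21 and 2.54.

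The contrast with Ckm-high cells was larger. There 39 members were higher in Pax7 only cells, against 30.2% of 8115 genes, and 1, E2f8, was lower, against 12.2%. The median log2 ratio was 2.95, and that of all genes was 0.46. Against Myog only cells the median was 1.18, with 27 members higher (16.6% of genes) and again E2f8 alone lower (8.3%). Against Dcn-high cells it was 1.58, with 35 higher (6.77%) and 0 lower (11%). These comparisons share the Pax7 only cells, so they are not independent of each other.

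**Figure D3:**
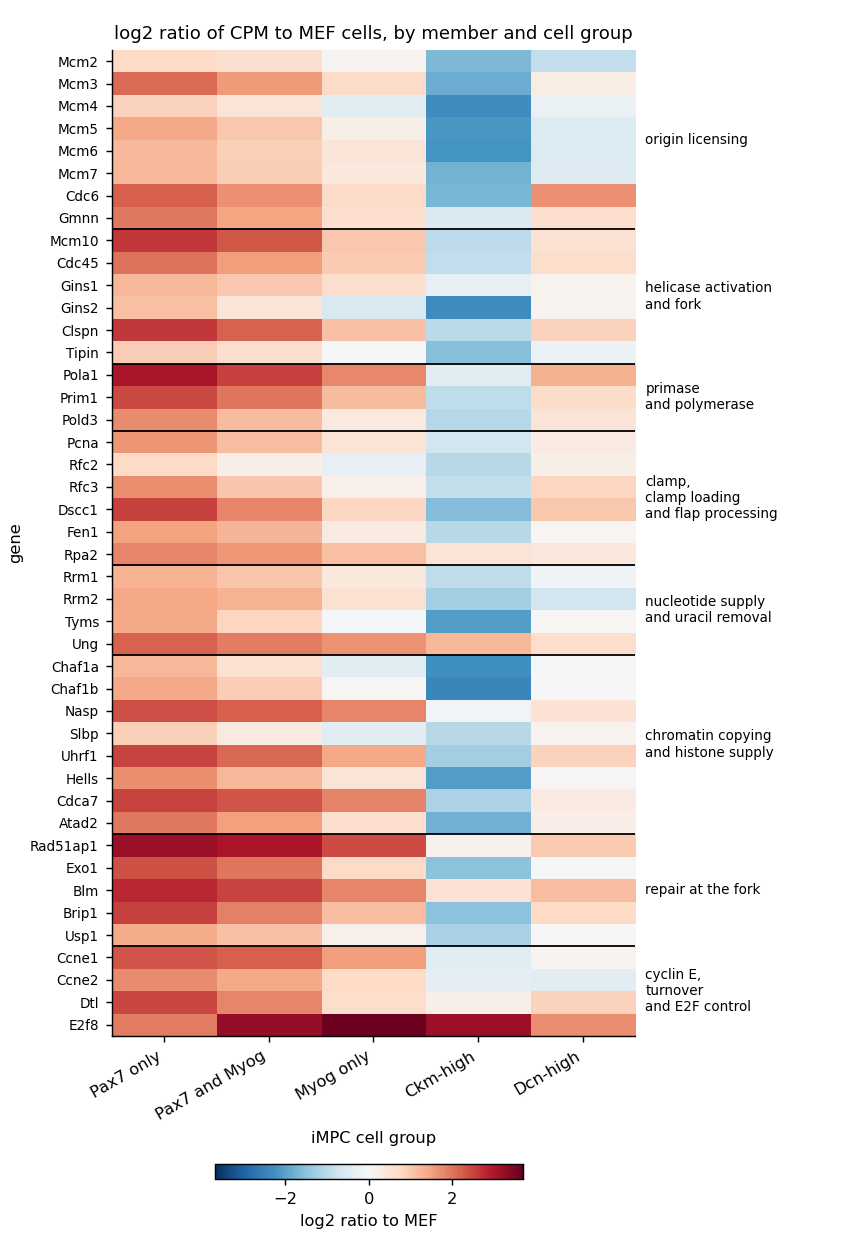
log2 ratio of CPM in each iMPC cell group to MEF (color) for the 44 members (lines), ordered by role. All members are red in the Pax7 only column, most are blue in the Ckm-high column, and E2f8, in the lowest line, is darkest in the Myog only column at 3.64.

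Among the licensing genes, Mcm3, a helicase subunit, had a wide range. It stood at 12.3 CPM in MEF, 53.1 in Pax7 only, 36.4 in Pax7 and Myog, 20.3 in Myog only, 3.43 in Ckm-high and 14.8 in Dcn-high cells. Its partner Mcm2 ranged less, with 12.9 CPM in MEF, 21.4 in Pax7 only, 19.3 in Pax7 and Myog, 13.9 in Myog only, 4.09 in Ckm-high and 6.90 in Dcn-high cells. The log2 ratio of Pax7 only cells to MEF was 2.11 (2.01 to 2.21) for Mcm3 and 0.74 (0.62 to 0.85) for Mcm2, although both proteins sit in the same ring. Mcm4, also of the ring, was at 15.5 CPM in MEF, 27.8 in Pax7 only, 21.8 in Pax7 and Myog, 11.6 in Myog only, 3.12 in Ckm-high and 13.1 in Dcn-high cells. Gmnn, the licensing inhibitor, was at 17, 66.0, 46.3, 26.0, 11.8 and 26.3 CPM in the same order. Cdc6, the helicase loader, differed in the Dcn-high cells, which held 5.83 CPM (4.56 to 7.36) against 1.80 (1.57 to 2.06) in MEF, on 71 and 213 UMIs. The 8 licensing genes together were at 299 CPM in Pax7 only, 111 in MEF and 35.9 in Ckm-high cells.

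At the fork, Mcm10, which helps to start the helicase, and Clspn, which stabilises the moving fork, had log2 ratios of 2.63 each for Pax7 only cells over MEF. Tipin, a partner of Timeless at the fork, differed less. It was at 45.7 CPM in MEF, 85.8 in Pax7 only, 69.0 in Pax7 and Myog, 43.3 in Myog only, 15.2 in Ckm-high and 39.7 in Dcn-high cells, a log2 ratio of 0.91 (0.85 to 0.97) for Pax7 only cells over MEF. Of the GINS subunits, Gins2 ran from 44.8 CPM in Pax7 only to 4.05 in Ckm-high cells, and Gins1 from 9.0 to 3.08.

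In Pax7 only cells, the summed level of primase and polymerase genes stood furthest above MEF among the roles. Pola1, the catalytic subunit of the polymerase that starts each strand, was at 3.72 CPM in MEF, 30.1 in Pax7 only, 21.5 in Pax7 and Myog, 12.8 in Myog only, 2.86 in Ckm-high and 9.28 in Dcn-high cells. Prim1, the primase that makes the RNA primer, was at 5.46, 29.6, 21.5, 12.3, 2.86 and 8.79 CPM in that order. For this role of 3 genes the log2 ratio of Pax7 only cells to MEF was 2.36 (2.28 to 2.44), and for the helicase and fork role 1.34 (1.30 to 1.38), the lowest of the 8 roles.

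Pcna, the sliding clamp, was at 40.9 CPM in MEF, 126 in Pax7 only, 90.3 in Pax7 and Myog, 58.4 in Myog only, 25.3 in Ckm-high and 50.8 in Dcn-high cells. Rfc2, a clamp loader subunit, was at 33.0, 55.5, 38.9, 26.9, 16.1 and 38.1 CPM in that order. Rpa2, which coats single-stranded DNA, was at 9.55, 33.7, 28.8, 20.7, 13.6 and 12.5 CPM. Rpa2 was above MEF in Ckm-high cells, with a log2 ratio of 0.51 (0.37 to 0.65), where Rfc2 was at -1.03 (-1.14 to -0.92). This role made up 21.6% of the member UMIs in Ckm-high cells and 16.2% in Pax7 only cells.

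Rrm1, the large subunit of the enzyme that makes deoxynucleotides, was at 32.4 CPM in MEF, 79.6 in Pax7 only, 65.5 in Pax7 and Myog, 42.2 in Myog only, 16.8 in Ckm-high and 29.6 in Dcn-high cells. Its partner Rrm2 went from 71.3 CPM in Pax7 only to 11.2 in Ckm-high cells, and Tyms, which makes thymidylate, from 64.3 to 5.73. Ung, which cuts uracil out of DNA, was the exception of this role. It was at 1.97 CPM in MEF and 4.58 in Ckm-high cells, a log2 ratio of 1.22 (0.94 to 1.49) at levels under 10 CPM.

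Among genes that copy chromatin, the histone chaperone Nasp was at 29.2 CPM in MEF, 152 in Pax7 only, 136 in Pax7 and Myog, 102 in Myog only, 27.2 in Ckm-high and 42.1 in Dcn-high cells. The log2 ratio of Myog only cells to MEF was 1.81 (1.74 to 1.88) for Nasp. Chaf1a and Chaf1b, subunits of the assembly factor CAF-1, did not follow it, with log2 ratios of -0.41 (-0.62 to -0.22) and 0.04 (-0.21 to 0.28) for Myog only cells over MEF. Uhrf1, which helps to copy DNA methylation, was at 45.3 CPM in Pax7 only, 7.94 in MEF and 3.27 in Ckm-high cells. Slbp, which binds histone mRNA, kept 21.3 CPM in Ckm-high cells against 80.7 in Pax7 only and 43.8 in MEF.

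Repair genes had the highest median member of the 8 roles for Pax7 only cells over MEF, with a log2 ratio of 2.52. Rad51ap1, a DNA repair gene, was at 5.03 CPM in MEF, 46.1 in Pax7 only, 41.0 in Pax7 and Myog, 27.0 in Myog only, 5.65 in Ckm-high and 9.78 in Dcn-high cells. Its log2 ratio of 3.2 (3.06 to 3.33) for Pax7 only cells over MEF was the highest of the 44. Blm, a helicase, was at 3.42, 23.4, 19.2, 12.1, 4.95 and 7.56 CPM in that order. Brip1, another helicase, was at 2.46 CPM in MEF, 14.2 in Pax7 only, 9.04 in Pax7 and Myog, 5.38 in Myog only, 0.863 in Ckm-high and 4.11 in Dcn-high cells. Brip1 and the nuclease Exo1 had log2 ratios of 4.04 (3.59 to 4.52) and 3.86 (3.41 to 4.35) for Pax7 only over Ckm-high cells, on 42 UMIs each in the latter. Exo1 was at 2.46, 12.6, 9.74, 4.06, 0.863 and 2.38 CPM from MEF to Dcn-high cells. Usp1, which removes ubiquitin from Pcna, was at 20.9, 53.9, 43.95, 23.7, 9.06 and 21.2 CPM.

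Ccne1, a cyclin E gene, was at 23.9 CPM in MEF, 119 in Pax7 only, 111 in Pax7 and Myog, 70.0 in Myog only, 17.3 in Ckm-high and 25.6 in Dcn-high cells. Ccne2, its sister gene, was at 13.4 CPM in Pax7 only, 3.95 in MEF and 3.08 in Ckm-high cells. Dtl, part of the ubiquitin ligase that destroys Cdt1 in S phase, was at 5.89, 32.8, 20.6, 9.34, 6.91 and 10.6 CPM from MEF to Dcn-high cells. Dtl had the largest log2 ratio of Pax7 only to Myog only cells, 1.81 (1.63 to 2.0), and Ccne1 was at 0.76 (0.69 to 0.84).

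E2f8 went the other way. This E2F-family repressor lies at chr7:48866429-48881596 (minus strand, GRCm38). It was at 3.13 CPM (2.82 to 3.47) in MEF, 11.9 (10.9 to 13) in Pax7 only, 30.03 (28.2 to 32) in Pax7 and Myog, 39.0 (36.8 to 41.3) in Myog only, 28.1 (26.6 to 29.6) in Ckm-high and 10.3 (8.55 to 12.2) in Dcn-high cells. Its highest level was therefore in Myog only cells, where the set as a whole was lower than in Pax7 only cells. The log2 ratio of Pax7 only to Myog only cells was -1.71 (-1.86 to -1.56) and to Ckm-high cells -1.24 (-1.38 to -1.09), each the lowest of the 44. Across groups E2f8 grew from 0.624% of the member UMIs in Pax7 only to 8.66% in Ckm-high cells. With groups cut on thinned UMIs, which left 115 Ckm-high cells, the ratio to Ckm-high cells was -0.44.

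**Figure D4:**
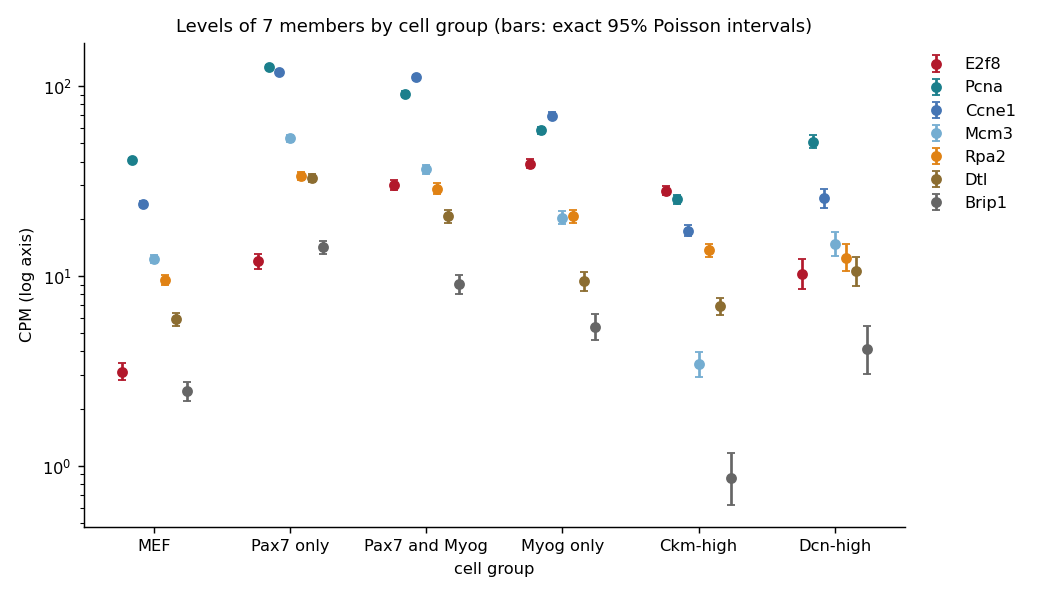
CPM on a log axis of 7 members in each cell group, with exact 95% Poisson intervals; vertical distance between genes is not a comparison of their levels. E2f8 goes from 11.9 CPM in Pax7 only to 39.0 in Myog only cells, across which the other 6 genes are lower.

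The members were next compared within cells, each against the summed UMIs of the other 43. In thinned cells, the level of a gene in cells with at least 8 UMIs of the others was set against its level in the rest of the group. In MEF all 44 were higher in the cells rich in the others, with a median log2 ratio of 3.33, and E2f8 was among them at 3.58 (2.88 to 4.29), with 15.9 against 1.33 CPM. In Pax7 only cells the median was 2.22 and E2f8 was at 1.78 (1.18 to 2.41), above 9 other members. In Myog only cells the median was 2.64, and E2f8 was at 0.33 (-0.14 to 0.78), with 48.4 CPM in the rich cells and 38.4 in the rest. In Pax7 and Myog cells it was at 0.14 (-0.39 to 0.65). These were the lowest values of the 44, and the next lowest were 1.49 and 1.29. Called doublets (droplets scored as holding 2 cells) were kept here. Their removal left 775 of 943 Pax7 and Myog cells and 2151 of 2180 Pax7 only cells. The comparison within cells was not repeated without them. In Dcn-high cells E2f8 was at -0.93 (-6.30 to 1.72), on 1 UMI in 48 rich cells and 20 in the other 505. Among members with a UMI in the rich cells this was the lowest and the only value below 0. Ung had 0 UMIs in 50 rich cells and 5 in the other 503, too few for a ratio. In Ckm-high cells, 149 E2f8 UMIs were in the 1022 cells poor in the other members and 0 in the 15 rich ones, which is too few cells for a ratio.

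**Figure D5:**
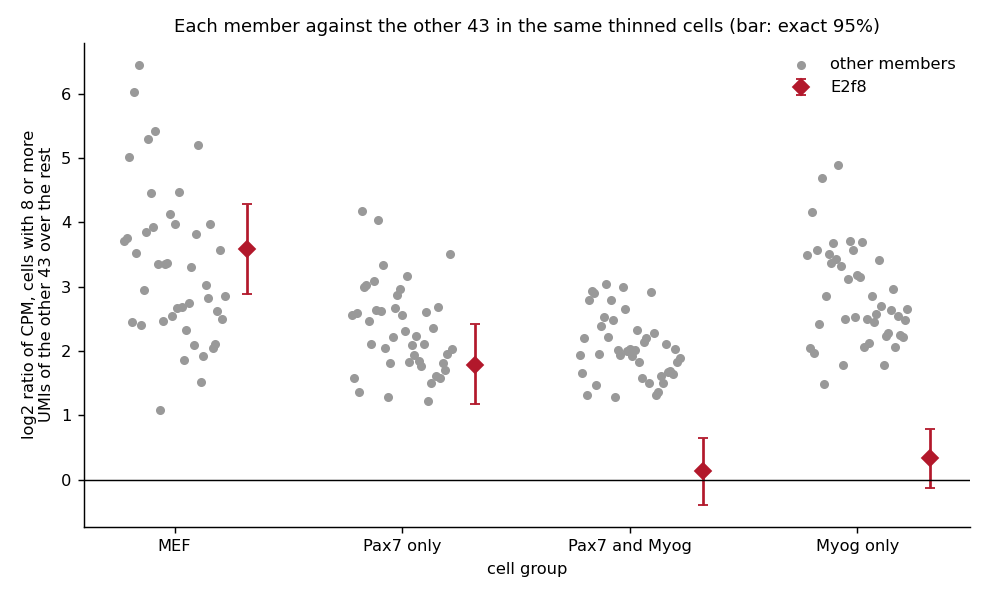
log2 ratio of each member's CPM between thinned cells with at least 8 UMIs of the other 43 members and the rest of the group, with the exact 95% interval for E2f8. E2f8 lies inside the cloud of the other members in MEF and Pax7 only cells and below it, near 0, in Pax7 and Myog and in Myog only cells.

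Csrp3, a muscle LIM protein gene, is the nearest protein-coding gene, on the same strand and 18396 bases beyond the 3′ end of E2f8. Csrp3 was at 8.66 CPM in Pax7 only, 225 in Myog only and 584 in Ckm-high cells. Its exons do not overlap those of E2f8. Gm2788, whose exons overlap E2f8 on the other strand, was not analysed here. A part of either gene's transcripts in the E2f8 counts was not tested.

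In Myog only cells, 37 members were above and 7 below MEF, with a median log2 ratio of 0.64 against -0.27 for all genes. Past 2-fold, 11 were higher (15% of 8521 genes) and 0 lower (28.6%), namely Rad51ap1, Cdca7, Blm, Nasp, Pola1, Ccne1, Uhrf1, Prim1, Rpa2, Clspn and E2f8. With groups cut on thinned UMIs the median was 0.058, with 5 members higher and 1 lower past 2-fold. The share of all genes past 2-fold was not computed with those cuts, so these counts cannot be set against it. In Pax7 and Myog cells 26 were higher (16.4%) and 0 lower (24.3%), with a median of 1.43. Set against Pax7 only cells, the Pax7 and Myog cells were lower for 43 members, with a median of -0.39 and 0 past 2-fold (6.39%). With groups cut on thinned UMIs, which left 117 Pax7 and Myog cells, the median was -0.99 and 20 were lower past 2-fold. Here too the share of all genes was not computed. With the main cuts E2f8 was the 1 member past 2-fold higher (6.23%), at 1.33. Set against Myog only cells, they had a median of 0.75, with Gins2, Clspn and Dtl past 2-fold higher (2.69%) and 0 lower (0.231%).

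In Ckm-high cells, 38 members were below MEF, with a median log2 ratio of -1.04 where all genes had -0.54. Past 2-fold, 15 were lower, against 35.2% of 8424 genes, and 1, E2f8, was higher, against 13.9%. Only 23 of the 44 reached 10 CPM in either group and could be counted. Of the members at 10 CPM, Gins2, Mcm4, Chaf1a and Mcm6 were lowest, at -2.34 to -2.22. Nasp was nearly level at -0.10 (-0.19 to -0.01), and at 0.20 when scaled by the median gene ratio. Myog only cells were above Ckm-high cells, with a median of 1.88, 26 members higher in Myog only cells (9.21%) and 0 lower (5.06%). With Scrublet doublets removed, the median of Ckm-high cells over MEF was -1.51.

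Dcn-high cells were close to MEF for this set. The median log2 ratio was 0.26, and E2f8 was the 1 member past 2-fold higher (13%), with 0 lower (12.9%). The 6 helicase genes Mcm2 to Mcm7 split, with Mcm3 at 0.27 and the other 5 between -0.90 and -0.24. Pola1 and Cdc6 were at 1.32 (1.01 to 1.62) and 1.69 (1.28 to 2.09), both under 10 CPM. With groups cut on thinned UMIs the median turned to -0.07, so its direction was not stable. For all iMPC cells over MEF the median was 1.25, with 20 members higher (14.8%) and 0 lower (21.5%).

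Replication genes outside the set were also counted. Of 49, which include origin recognition, polymerase and ligase genes, 35 reached 10 CPM in either group in each of 2 comparisons. In Pax7 only cells 19 were higher than in MEF past 2-fold and 0 lower (14.8% and 19.4% of all genes tested), and 28 were higher than in Ckm-high cells and 0 lower (30.2% and 12.2%). Tk1, a thymidine kinase, was at 44.3 CPM in Pax7 only, 17.9 in MEF and 2.96 in Ckm-high cells. Timeless, the partner of Tipin, was at 12.6, 2.96 and 0.843 CPM in that order. Pola2, a partner subunit of Pola1, was at nearly the same level in both, with 15.0 CPM in Pax7 only and 14.6 CPM in Ckm-high cells, and the origin protein gene Orc4 was at 28.7 and 26.0 CPM. All 20 mitosis genes were higher in Pax7 only cells than in MEF and than in Ckm-high cells past 2-fold.

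The E2F family and its regulators did not move together. E2f1, an activator, was at 25.9 CPM in MEF, 28.4 in Pax7 only, 10.6 in Myog only and 2.75 in Ckm-high cells. E2f7, the closest relative of E2f8, followed the replication genes, with 2.05, 13.1, 4.15 and 0.699 CPM in the same groups. Rb1, which restrains activator E2Fs, was at 9.41, 9.0, 94.0 and 69.8 CPM, and the repressor-type gene E2f4 at 35.6, 22.2, 47.5 and 59.6 CPM. E2f2, picked after its values were seen, was at 0.508, 13.6, 32.2 and 18.6 CPM, an order of groups like that of E2f8. The 7 Cdk inhibitor genes were also split. Past 2-fold, 2 were higher and 2 lower in Pax7 only than in Myog only cells (16.6% and 8.3% of all genes tested). Their median log2 ratio was 0.65, against 0.20 for the genes tested. Cdkn1c was at 152, 229, 3252 and 1863 CPM and Cdkn1a at 626, 411, 1032 and 1295 CPM in the same groups. Cdkn1b was at 12.2, 74.2, 43.1 and 33.2 CPM and Cdkn2a at 1027, 813, 335 and 299 CPM, both lower in Myog only than in Pax7 only cells.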

How the data were processed

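Per the labels' protocols, trypsinised cells were prepared with the 10x Genomics 3′ kit in its version 3. The submitters' processing notes name Cell Ranger 4.0, Seurat 3.2.3 and GRCm38.p6. The authors deposited raw UMI counts per gene and barcode; strand use and the choice of MEF barcodes are not given in the sources used here. The iMPC matrix lists 6794880 barcodes, and those with at least 8036 UMIs (10% of the 99th percentile of the top 10000) and at most 20% mitochondrial UMIs were kept as cells. In MEF, 6043 of 6113 barcodes passed the same mitochondrial limit. The libraries share 16 cell barcodes. Analysis used Python 3.11.15, numpy 2.4.6, scipy 1.17.1, pandas 2.3.3 and scanpy 1.11.5. Counts were summed per group and divided by all UMIs of the group (CPM). Intervals are exact at 95%: Poisson for sums, conditional for ratios and Clopper-Pearson for shares. A gene at 0 was set to a floor of 3 counts. Doublets were kept, and removed in an alternative. Ratios were tested on simulated data. Exons of Ccne2, Cdc45, Chaf1a, Fen1, Gins2, Mcm7, Rfc2 and Slbp overlap counted genes on the other strand, and those of E2f8 and Dscc1 overlap genes there that are not analysed here, so counts of all 10 are uncertain if strand was not used. Cells are not replicates, and fewer RNA-rich cells and less RNA per cell cannot be told apart from sums alone. Members, roles and lists were chosen with earlier results of these data known. Values in every group are given for the member with most UMIs in each role and, at 10 CPM, for the 3 largest and 3 smallest ratios of Pax7 only to Ckm-high cells and to MEF; other members are named with fewer values. From other lists, at most 4 genes were named by the first of these ratios. E2f2 was named in addition, after its values were seen.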

Additional observations from a re-analysis of the deposited data

Results flagged for a closer look

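Member transcripts were also present in iMPC barcodes too small to be called cells, which the comparisons did not use. Barcodes of 1 to 100 UMIs held 906 CPM of the 44 genes (886 to 926), where a count of 0 would allow 0.342 CPM, and barcodes of 200 to 600 UMIs held 686 CPM (675 to 697), where it would allow 0.141. These levels were 0.707 and 0.535 times that of the kept iMPC cells. A droplet of the median size of the larger barcodes, 430 UMIs, would hold 0.295 member UMIs at that level, below the minimum of 8 used per cell. Whether these barcodes are free RNA or cell fragments was not tested.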

How the results depend on the processing

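No paired analysis was possible because there are 2 libraries, 1 of MEF and 1 that holds all iMPC groups. A difference of iMPC cells from MEF cannot be told apart from a difference between the libraries. Values are median log2 ratios of the members. Of 168 recomputed medians 132 stayed within the median member's interval, 35 moved and 1 reversed; the cause was not tested. With groups cut on thinned UMIs, Dcn-high over MEF turned to -0.069, and the others that moved were Pax7 and Myog over MEF (0.75), Myog only over MEF (0.058), Ckm-high over MEF (-1.39), Pax7 only over Myog only (1.74), Pax7 and Myog over Pax7 only (-0.99), Pax7 only over Dcn-high (2.15) and Pax7 only over Ckm-high (3.43). That setting left 117 Pax7 and Myog and 115 Ckm-high cells. Without cells in more than 1 group, the medians were 1.73 for Pax7 and Myog over MEF, -1.54 for Ckm-high over MEF, -0.12 for Pax7 and Myog over Pax7 only, 1.09 over Myog only, 2.31 for Myog only over Ckm-high and 3.28 for Pax7 only over Ckm-high. In cells of 15000 to 30000 UMIs, a range chosen after seeing the data, they were 1.60 for all iMPC, 1.81 for Pax7 and Myog, 0.87 for Myog only and -1.72 for Ckm-high over MEF, -0.11 for Pax7 and Myog over Pax7 only, 1.04 over Myog only, 2.49 for Myog only over Ckm-high, 1.96 for Pax7 only over Dcn-high and 3.55 over Ckm-high. Leaving out shared barcodes, also added after seeing the data, moved no median. With doublets removed, Ckm-high over MEF was -1.51, Myog only over Ckm-high 2.20 and Pax7 only over Ckm-high 3.21. Scaled by the median gene ratio, all iMPC over MEF was 1.39, Ckm-high over MEF -0.74 and Pax7 only over Ckm-high 2.72. Without mitochondrial and ribosomal protein genes in the total, the medians over MEF were 1.40 for all iMPC, 1.98 for Pax7 only, 1.58 for Pax7 and Myog and 0.81 for Myog only. As a mean over cells, all iMPC over MEF was 1.47, Pax7 and Myog over MEF 1.69 and over Pax7 only -0.16.

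Some single genes changed sign in Ckm-high over MEF. Nasp, at -0.10 in the main comparison, was at 0.20 when scaled by the median gene ratio, Rad51ap1, at 0.17, was at -0.19 with doublets removed, -0.55 with thinned cuts and -0.19 without cells in more than 1 group, and Blm, at 0.53 in the main comparison, at -0.090 in cells of 15000 to 30000 UMIs. E2f8 stayed lower in Pax7 only than in Myog only (-1.87 to -1.64) and Ckm-high cells (-1.47 to -0.44) over 12 alternatives. Members under 10 CPM rest on few UMIs, such as 23 of Dscc1 in Ckm-high cells.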
